A study of Mus musculus with 4 samples.

Results

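The clustered protocadherins are cadherin-type cell adhesion proteins encoded by 3 neighbouring gene clusters, alpha, beta and gamma. The members were the rows of the deposited count table whose Ensembl identifier carries, in GENCODE M21, a protein-coding symbol of the Pcdha, Pcdhac, Pcdhb, Pcdhga, Pcdhgb or Pcdhgc series. This gave 57 genes out of 34866 rows: 14 in the alpha, 22 in the beta and 21 in the gamma cluster. A pair of alpha rows, ENSMUSG00000007440 and ENSMUSG00000102206, carry the same symbol, Pcdha11, and are told apart here by identifier.

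Cells were neural stem and progenitor cells from the dorsal telencephalon of wild-type E11.5 mouse embryos, grown as neurospheres with bFGF for 5 days after lentiviral transduction. In the shControl group, the single vector CS-EG-shControl was used at a multiplicity of infection of 30. In the triple knockdown group, 3 vectors were used together at 10 each, a total of 30. The Phf21b hairpin was on pCS-EG-shPhf21b, the Zfp7 hairpin on pLV-EG-shZfp7, and that against Zfp57 on pLV-EG-shZfp57. The genotype label spells a pair of these targets Phf21 and Sfp7. Each group had 2 libraries, all with the same batch label, and the groups are called controls and knockdown below. Vector number and vector backbone differ between the groups and cannot be told apart from the hairpins. The series' title concerns regulators of the timing of neuron subtype differentiation, and the single comparison is triple knockdown against shControl.

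In the alpha and gamma clusters, many first exons stand in a row, each behind a promoter of its own, and each is spliced to the same downstream constant exons of its cluster. The variable exon encodes the extracellular cadherin repeats and the transmembrane segment, and the constant exons encode a shared cytoplasmic tail. Beta genes have a single coding exon and no constant tail. Neurons are known to choose a few alternate isoforms by chance, a choice tied to CTCF, cohesin and promoter DNA methylation, whereas the C-type isoforms (Pcdhac1, Pcdhac2, Pcdhgc3, Pcdhgc4 and Pcdhgc5) are used more uniformly. The proteins bind their own kind on opposing membranes and serve in self-recognition and survival of neurons.

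All members lie on the plus strand of chromosome 18 (GRCm38, M21 gene bounds). The alpha cluster spans chr18:36930184-37187661, the beta cluster chr18:37264938-37524479 and the gamma cluster chr18:37661793-37841873. The exons common to all 14 alpha members form 3 blocks with 2860 bases, and those common to all 21 gamma members form 3 blocks with 2116 bases. No base is exonic in all beta members, and 22 of 22 beta genes have 1 exon. A read from a constant exon does not show which first exon it belongs to, so the quantifier divides such reads among the members by a model.

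The share of sequence that tells a member from the other genes of the table differed by cluster. A median of 36.5% of an alpha member's 31-base words occurred in no other gene of the table (range 9.32% to 54.5%). The median was 53.9% for gamma members (32.5% to 72.7%) and 88.2% for beta members (77.5% to 100.0%). The deposited values differed in the same order. Of values above 0, 35 of 36 (97.2%) in the alpha cluster and 74 of 77 (96.1%) in the gamma cluster were not whole numbers, against 25 of 80 (31.2%) in the beta cluster. The alpha counts of a library nevertheless added up to a whole number, to 237 and 129 for shControl replicates 1 and 2, and to 131 and 109 for the corresponding knockdown libraries. The gamma sums were not whole, at 601.3 and 373.1 for the controls and 458.6 and 341.1 for the knockdown. Gamma constant exons are also exonic in gene models outside the members, such as Pcdhgb8. The division of constant-exon reads within a cluster does not change its sum, while a division with genes outside it can. Each cluster was tested as a sum beside its members.

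Several low alpha and gamma values were multiples of a common step. In shControl replicate 1, 3 alpha members had counts within 3% of 4.57, and 7 of the 11 low alpha values lay within 0.1 step of a whole multiple of it. In triple knockdown replicate 1 the alpha step was 4.06, with 7 of 10 such values. The gamma step was 1.82 in shControl replicate 2 (7 of 9 values) and 1.82 in triple knockdown replicate 2 (13 of 15). In triple knockdown replicate 1 a run of gamma values near 10.7 had 3 of 16 near a multiple, and these 3 were the run itself. The counts given before it likewise include the values that set the step. These were 5 for gamma in triple knockdown replicate 2 and 3 in each other case. No run was found in the remaining alpha and gamma libraries. The rule needs 3 members within 3% of each other, so it can miss a spacing or take a multiple of it. These steps were looked for after the values had been seen.

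The genes were lowly expressed in these cells. Library totals were 14694387 to 20779211 counts, of which all members together held 719 to 1239. Levels are in CPM, which relates a count to the TMM-scaled total of its library. The mean level was at least 1 CPM in 11 of 57 members (1 alpha, 6 beta and 4 gamma), 38 members were above 0 in all 4 libraries, and Pcdha1 was listed at 0 in all of them. The edgeR filter on low counts kept 29 members (6 alpha, 13 beta, 10 gamma) of 14050 genes, and the other 28 were not tested. Among the tested members the median level was 0.881 CPM, against 6.19 CPM over all tested genes. The level differed more than 2-fold between the libraries of a group in 14 of the 29, against 8.68% of all tested genes. Changes of single members were therefore poorly resolved at this depth. The plot of every member's level shows this spread.

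**Figure D1:**
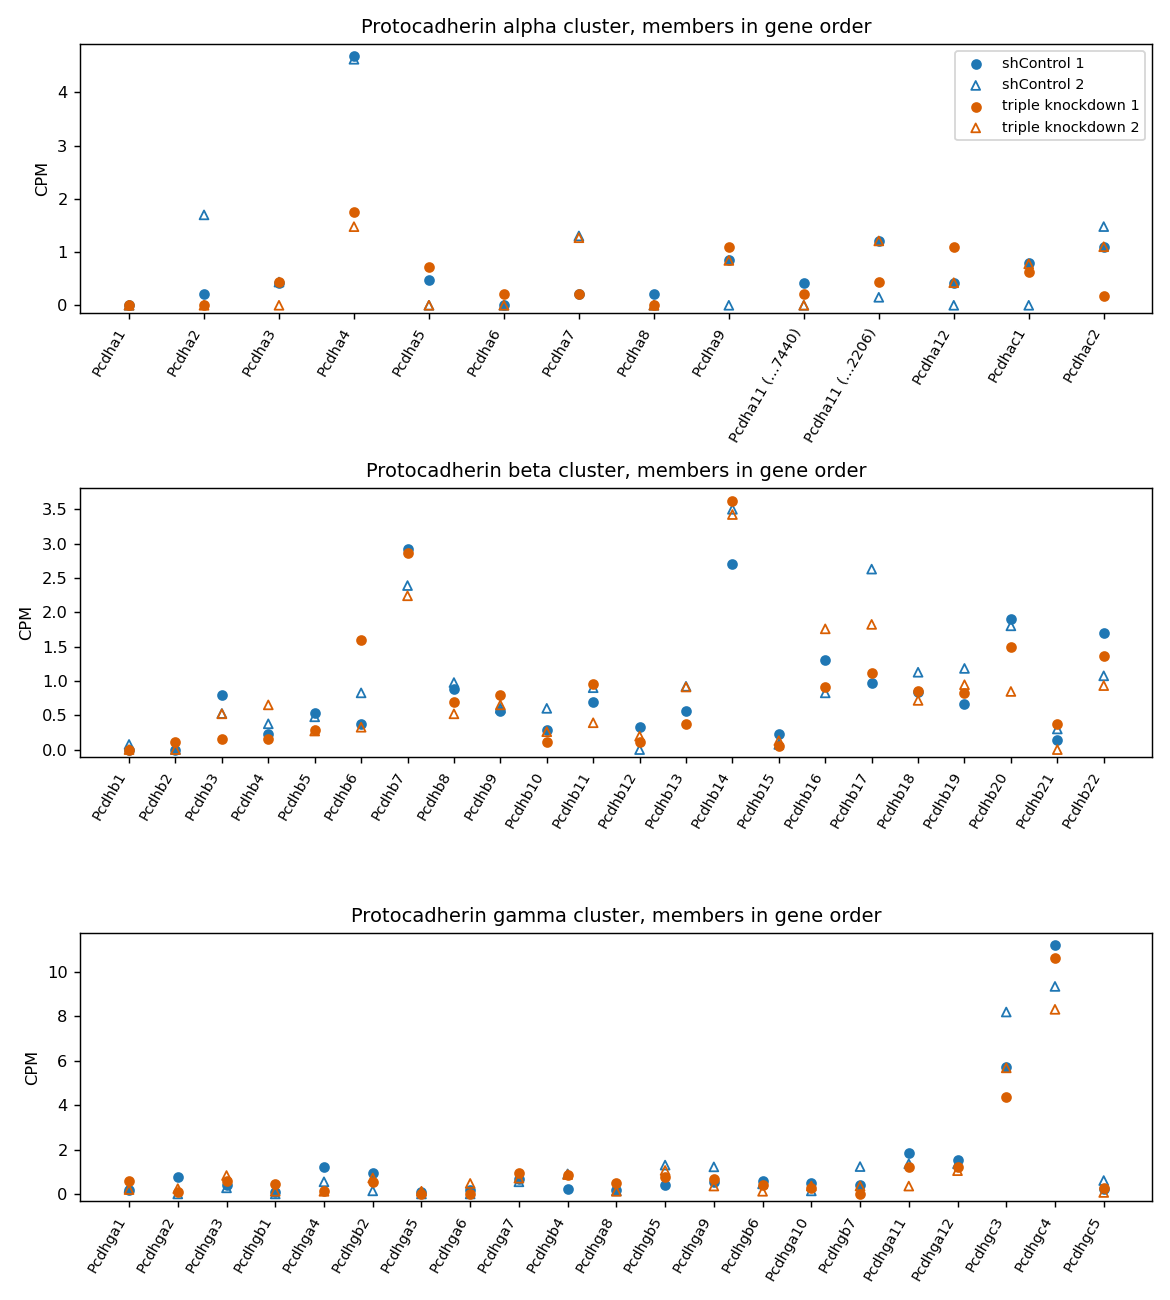
Level of each of the 57 members (x axis, gene order within the alpha, beta and gamma clusters) in CPM (linear y axis, a separate scale for each cluster), 1 symbol per library, with circles for replicate 1 and triangles for replicate 2. The shControl levels of Pcdha4 (4.68 and 4.62 CPM) stand above its knockdown levels (1.76 and 1.48 CPM), while Pcdhgc4 and Pcdhgc3 are the highest members of all.

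The level of 1 member passed the threshold of the comparison, which is 0.05 for the adjusted p of the quasi-likelihood test in edgeR. It was Pcdha4, and it was lower in the triple knockdown. Over all genes tested, 0.826% were called lower and 0.541% higher by the same rule. No member was called higher. An unadjusted p under 0.05 was reached by 2 of the 29 tested members, Pcdha4 and Pcdhga11, against 12.0% of all tested genes. Of the 29 tested members, 15 had a log2 fold change below 0 and 14 above 0. Their median was -0.072, beside -0.0085 over all tested genes. In 7 members both knockdown libraries lay below both controls, and in 3 they lay above, while 19 overlapped. Over all tested genes 21.7% lay below and 19.6% above in this way. DESeq2, which was run without the edgeR filter on low counts, called 0 of the 56 members it tested. Among its 22122 tested rows it called 32 lower and 23 higher.

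Pcdha4, an alternate alpha isoform (ENSMUSG00000104252.5, chr18:36952648-37187661), had estimated counts of 100.7 and 61.5 in the controls and 33.0 and 22.7 in the knockdown libraries. These correspond to 4.68 and 4.62 CPM against 1.76 and 1.48 CPM. Both controls were high and both knockdown libraries low, with no overlap, an order held by 21.7% of all tested genes. The means were 4.65 ± 0.038 and 1.62 ± 0.200 CPM (SD, n = 2 each). Pcdha4 fell by 1.51 on the log2 scale (SE 0.31, edgeR adjusted p = 0.00135), to 35.1% of the control level with a 95% interval of 23.1% to 53.3%.

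Against all genes of the table, the sequence of Pcdha4 is the least told apart of all members. Only 9.32% of its 31-base words occur in no other gene of the table. With all M21 genes counted, 92.2% of its words are shared, less than the 99.4% of Pcdhga10. Other alpha members share 57.3% of its words, which is not extreme for the cluster. That share ran from 44.9% for Pcdha11 (ENSMUSG00000102206) to 70.2% for Pcdha7. In addition, 43.3% of its exonic bases overlap other gene models. These are Gm42416, a model on the same strand that runs from the alpha into the gamma cluster, and Gm38225 on the opposite strand. Gm42416 was listed at 0 in all 4 libraries, and the deposited counts have no row for Gm38225. Divided by the spacing of the low alpha values described above, the count of Pcdha4 was 22.0 in shControl replicate 1 and 8.14 in triple knockdown replicate 1. What the spacing stands for was not tested. The call was lost with DESeq2 (adjusted p = 0.184) and without triple knockdown replicate 2 (edgeR adjusted p = 0.0737).

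The share of alpha counts assigned to Pcdha4 was 42.5% and 47.7% in the controls and 25.2% and 20.8% in the knockdown libraries. It was the leading alpha member in each of the 4 libraries. The rest of the cluster was made up differently in each library, as the bars of alpha shares show.

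**Figure D2:**
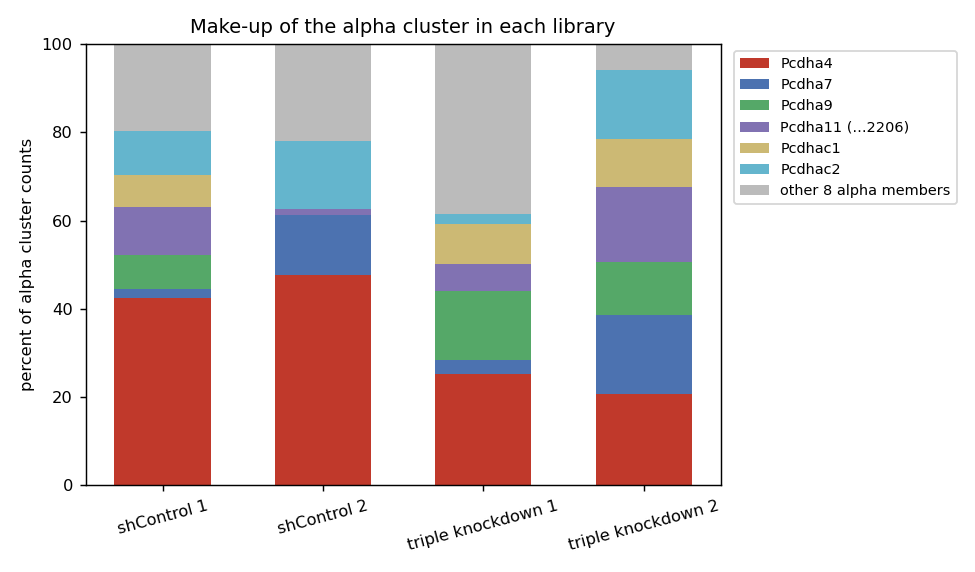
Percentage of the alpha cluster's estimated counts (y axis) assigned to each named alpha member in each of the 4 libraries (x axis), with the other 8 members in grey and each bar summing to 100. Pcdha4 takes 42.5% and 47.7% in the controls and 25.2% and 20.8% in the knockdown libraries, and the shares of the other members differ between replicates.

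The other alternate alpha isoforms that could be tested overlapped between the groups. Pcdha7 had 0.212 and 1.30 CPM in the controls and 0.219 and 1.27 CPM in the knockdown libraries, low in replicate 1 and high in replicate 2 of both groups (log2 fold change 0.025). Pcdha9 had 0.847 CPM in shControl replicate 1, was listed at 0 in replicate 2, and had 1.09 and 0.843 CPM in the triple knockdown. Pcdha11 (ENSMUSG00000102206) had 1.21 and 0.150 CPM against 0.432 and 1.21 CPM. The log2 fold changes of Pcdha9 and Pcdha11 were 1.03 and 0.12 (edgeR adjusted p = 0.566 and 0.969). That of Pcdha9 was 0.25 without shControl replicate 2.

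Pcdhac1 and Pcdhac2 are the C-type alpha isoforms, whose exons lie closest to the constant exons. Pcdhac2 had 1.10 and 1.48 CPM in the controls and 0.168 and 1.10 CPM in the knockdown libraries. Triple knockdown replicate 2 came to just under the lower control, so that the low mean rested on replicate 1. The log2 fold change came to -1.08 (SE 0.57, edgeR adjusted p = 0.444), and to -0.22 without that library. Pcdhac1 had 0.804 CPM in shControl replicate 1, was listed at 0 in shControl replicate 2, and had 0.626 and 0.778 CPM in the triple knockdown (log2 fold change 0.63, edgeR adjusted p = 0.799).

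Of the 8 alpha members that were not tested, Pcdha2 is named here after its values were seen. Its estimated counts were 4.50 and 22.6 in the controls, and it was listed at 0 in both triple knockdown libraries. Pcdha2 fell below the filter, and passed the threshold where no filter was used (edgeR adjusted p = 0.00145).

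The alpha cluster as a sum had 11.0 and 9.69 CPM in the controls and 6.98 and 7.10 CPM in the knockdown libraries. The knockdown libraries thus lay below both controls, as in 21.7% of all tested genes. The means were 10.3 ± 0.931 and 7.04 ± 0.0838 CPM (SD, n = 2 each). The log2 fold change of the sum was -0.56 (SE 0.20), or 67.8% of the control level (95% interval 51.7% to 88.8%), and it did not pass the threshold over all genes (edgeR adjusted p = 0.157, where 1.38% of the tested rows passed). The median of the 6 tested alpha members was 0.071, of the opposite sign to the sum. Without Pcdha4, a sum added after its value was seen, the remaining 13 alpha members had 6.33 and 5.07 CPM against 5.22 and 5.62 CPM. These overlapped (log2 fold change -0.084, SE 0.23, edgeR adjusted p = 0.934). Leaving out the member called lower moves the sum towards 0 by construction. Unlike the cluster sum, this sum also depends on how constant-exon reads were divided between Pcdha4 and the rest. It therefore cannot show whether the rest of the cluster changed.

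**Figure D3:**
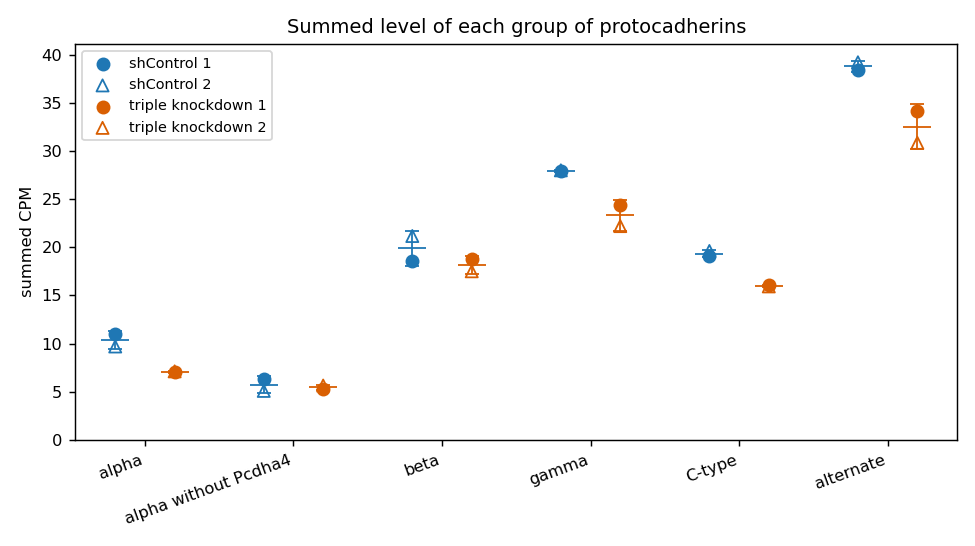
Summed level in CPM (linear y axis from 0) of the alpha, beta and gamma clusters, of alpha without Pcdha4, and of the C-type and alternate isoforms, with 1 symbol per library and a horizontal line and bar for the mean and SD of 2 libraries. The alpha and gamma sums of the triple knockdown lie below both controls, while the beta sums and the alpha sums without Pcdha4 overlap.

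Beta protocadherins, whose single-exon genes are the best told apart, did not pass the threshold in any of the 13 tested members. Pcdhb14 had the highest mean CPM of the cluster, with 2.70 and 3.50 CPM in the controls and 3.63 and 3.42 CPM in the knockdown libraries (log2 fold change 0.21, SE 0.29). Pcdhb7 had 2.92 and 2.39 CPM against 2.87 and 2.24 CPM (log2 fold change -0.072, SE 0.32). The groups overlapped for both. Per length of transcript, Pcdhb7 was the highest beta member at 0.744 CPM per kb. Pcdhb17 was read at 0.975 and 2.63 CPM in the controls and 1.12 and 1.82 CPM in the knockdown (log2 fold change -0.24).

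Pcdhb20 had the most negative beta log2 fold change, -0.64 (SE 0.42, edgeR adjusted p = 0.579), from 1.90 and 1.80 CPM in the controls and 1.49 and 0.847 CPM in the knockdown, with no overlap. Pcdhb6 had the most positive, 0.80 (SE 0.60, edgeR adjusted p = 0.654). Its levels were 0.372 and 0.826 CPM against 1.60 and 0.326 CPM, so that 1 knockdown library was the highest and the other the lowest of the 4. Pcdhb22, with 1.70 and 1.07 CPM against 1.36 and 0.932 CPM, overlapped between groups (log2 fold change -0.30). The 13 beta values had a median of -0.17. Both knockdown libraries lay below both controls in 2 members and above them in 1, orders held by 21.7% and 19.6% of all tested genes.

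The beta cluster sums were 18.6 and 21.2 CPM in the controls and 18.8 and 17.5 CPM in the knockdown libraries, and overlapped. The means were 19.9 ± 1.83 and 18.2 ± 0.931 CPM (SD, n = 2 each). The log2 fold change came to -0.13 (SE 0.16, edgeR adjusted p = 0.835), and the 95% interval reached from 73.5% to 114% of the control level. Leaving out shControl replicate 2 gave -0.022 for the beta sum, and leaving out shControl replicate 1 gave -0.22.

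Gamma protocadherins were led by C-type isoforms in all 4 libraries. Pcdhgc4 (ENSMUSG00000023036.14, chr18:37815079-37841873), an isoform known for its role in neuron survival, had 11.2 and 9.35 CPM in the controls and 10.6 and 8.32 CPM in the knockdown libraries. It was the highest of the 57 members, in CPM and per length (2.71 CPM per kb, or 1.77 with the union of its exons as length). Its groups overlapped (log2 fold change -0.12, SE 0.19, edgeR adjusted p = 0.875). It held 33.4% to 43.5% of the gamma counts of a library.

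Pcdhgc3, next in level at 1.28 CPM per kb, had 5.73 and 8.20 CPM in the controls and 4.35 and 5.68 CPM in the knockdown libraries. The higher knockdown library lay just under the lower control. The log2 fold change came to -0.46 (SE 0.23, edgeR adjusted p = 0.423). Pcdhgc5, the last C-type isoform of the cluster, had 0.237 and 0.603 CPM against 0.278 and 0.0656 CPM and fell below the filter.

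Among the alternate gamma isoforms, Pcdhga11 had the most negative log2 fold change, -1.02 (SE 0.49, edgeR adjusted p = 0.381). It ranged from -2.29 without triple knockdown replicate 1 to -0.41 without triple knockdown replicate 2. Its levels were 1.85 and 1.36 CPM in the controls and 1.23 and 0.353 CPM in the knockdown libraries, without overlap. Pcdhga12 also had both knockdown libraries below the controls, at 1.51 and 1.36 CPM against 1.21 and 1.05 CPM (log2 fold change -0.35). This order was held by 21.7% of all tested genes. Pcdhga3 had the most positive value, 0.93 (SE 0.67, edgeR adjusted p = 0.631), from 0.423 and 0.273 CPM against 0.569 and 0.830 CPM. Pcdhgb5, with 0.388 and 1.30 CPM against 0.781 and 1.06 CPM, overlapped between groups (log2 fold change 0.25). Of the 10 tested gamma members, 5 lay below 0 and 5 above, with a median of -0.029. Pcdhga4, named after its values were seen, was not tested. Its estimated counts were 26.6 and 7.27 in the controls and 2.69 and 1.82 in the knockdown.

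**Figure D4:**
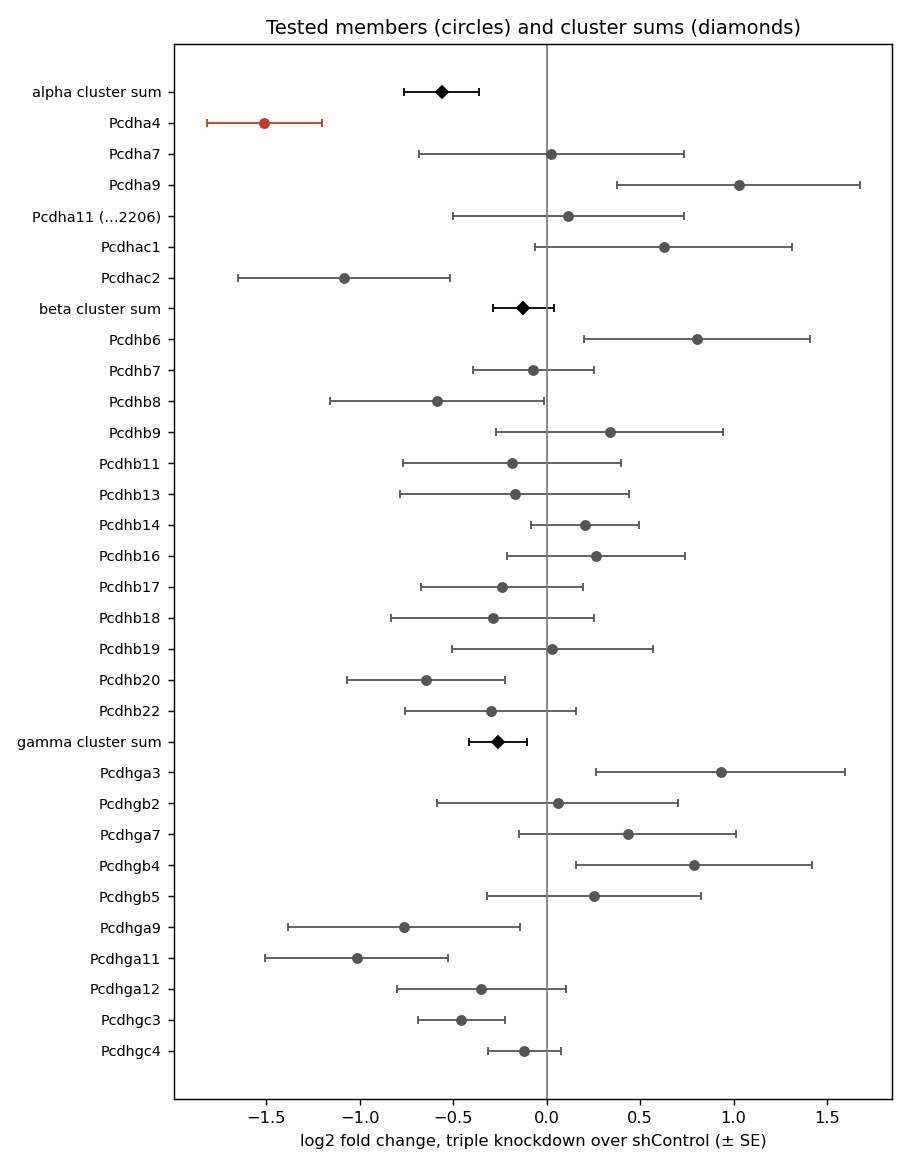
Log2 fold change of triple knockdown over shControl (x axis, with SE bars from edgeR) for the 29 tested members (circles) and the 3 cluster sums (diamonds), in gene order. Pcdha4, in red at -1.51, is the member past the threshold, and the sums at -0.56, -0.13 and -0.26 have shorter bars than most members.

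The gamma cluster sums were 27.9 and 28.0 CPM in the controls and 24.4 and 22.2 CPM in the knockdown libraries. Both knockdown libraries lay below both controls, as in 21.7% of all tested genes. The means were 28.0 ± 0.0723 and 23.3 ± 1.57 CPM (SD, n = 2 each). The log2 fold change came to -0.26 (SE 0.15, edgeR adjusted p = 0.520), with a 95% interval of 67.8% to 103% of the control level. With the overlapping genes outside the members added, of which only Pcdhgb8 had counts, it was -0.23 (edgeR adjusted p = 0.585).

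Divided by isoform type rather than by cluster, the 5 C-type members summed to 19.1 and 19.6 CPM in the controls and 16.0 and 15.9 CPM in the knockdown libraries. The 52 other members summed to 38.4 and 39.3 CPM against 34.2 and 30.9 CPM. For each sum both knockdown libraries lay below both controls, an order held by 21.7% of all tested genes. Pcdhgc4 and Pcdhgc3, with means of 9.88 and 5.99 CPM over all libraries, made up most of the C-type mean of 17.7 CPM. The log2 fold changes were -0.27 (SE 0.16) for the C-type and -0.25 (SE 0.14) for the other members, and neither passed the threshold (edgeR adjusted p = 0.534 and 0.493). The difference between the types was not tested.

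Gamma members held 47.4% to 48.6% of all member counts in each of the 4 libraries. The beta share was 32.3% and 36.0% in the controls and 37.5% and 37.4% in the knockdown. The alpha share was 19.1% and 16.5% in the controls and 13.9% and 15.2% in the knockdown. Alpha was thus the smallest of the clusters in each library.

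Genes known to act with the clusters were described from lists, which were chosen with earlier results of these data known. None of the 11 tested nonclustered protocadherins, genes outside the alpha, beta and gamma clusters, passed the threshold in edgeR. Their median log2 fold change was -0.16. Pcdh10, the highest of them, had 32.8 and 37.4 CPM in the controls and 29.1 and 29.4 CPM in the knockdown (log2 fold change -0.26, edgeR adjusted p = 0.493). Pcdh11x had 7.76 and 12.9 CPM against 7.52 and 6.58 CPM (edgeR adjusted p = 0.242).

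None of the 13 genes of CTCF, cohesin and their partners at cluster promoters passed, with a median of -0.070. Rad21, a cohesin subunit, had a log2 fold change of -0.093 and Stag2, another, 0.037. None of the 19 genes of DNA methylation and H3K9 methylation passed either, with a median of 0.043. Cbx3 and Cbx5, which encode HP1 proteins that bind methylated H3K9, had values of -0.061 and 0.064.

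Of 28 tested genes for cytoplasmic partners and processing of protocadherins, 1 was lower and none higher, beside 0.826% and 0.541% of all tested genes. The lower gene was Abi2, a subunit of the WAVE complex that directs actin assembly. Its levels were 25.1 and 29.1 CPM in the controls and 16.7 and 18.3 CPM in the knockdown. Abi2 fell by 0.63 on the log2 scale (SE 0.16, edgeR adjusted p = 0.0185), a call kept in 9 of 13 alternatives. It was lost with DESeq2 (adjusted p = 0.257), with library totals alone (edgeR adjusted p = 0.315), without triple knockdown replicate 1 (edgeR adjusted p = 0.601) and without triple knockdown replicate 2 (edgeR adjusted p = 0.183).

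Of 15 tested genes that flank the clusters or lie between them, 1 was lower and none higher, beside 0.826% and 0.541% of all tested genes. The lower gene was Rell2, which starts 113.2 kb beyond the gamma cluster. Its levels were 6.97 and 5.54 CPM in the controls and 3.52 and 2.47 CPM in the knockdown. Rell2 fell by 1.06 on the log2 scale (SE 0.25, edgeR adjusted p = 0.0101), a call kept in 9 of 13 alternatives. It was lost with DESeq2 (adjusted p = 0.623) and without shControl replicate 1, triple knockdown replicate 1 or triple knockdown replicate 2 (edgeR adjusted p = 0.112, 0.0536 and 0.381). Fchsd1, on the opposite strand, overlaps 44.4% of the exonic bases of Rell2. Fchsd1 had 1.90 and 2.20 CPM against 2.08 and 2.28 CPM. The use of strand in the counting was not given in the sources used here, so reads of the pair may not be told apart.

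Markers of cell types moved beside these results. Of 20 pan-neuronal genes, 3 were lower in edgeR (Tubb3, Nsg2 and Celf4) and none higher, with 18 of 20 below 0, and their summed level was 1525 to 1683 CPM in the controls and 1262 to 1305 CPM in the knockdown. Of 10 tested astroglial genes, 3 were lower (Hopx, Sparcl1 and Tnc) and 9 lay below 0. Their sums were 305 to 317 CPM against 220 to 231 CPM. Of 6 tested erythroid genes, Hbb-y was higher, with sums of 27.3 to 29.4 CPM against 40.0 to 42.2 CPM. None of the 15 progenitor, 7 oligodendrocyte lineage, 7 myeloid, 4 endothelial and pericyte or 9 meningeal and fibroblast genes tested passed the threshold. Log2 fold changes lay below 0 in 12 of 15 progenitor, 3 of 7 oligodendrocyte lineage and 4 of 7 myeloid genes. They did so in 2 of 4 endothelial and pericyte, 5 of 9 meningeal and fibroblast and 1 of 6 erythroid genes. Over all tested genes 51.1% lay below 0, with 0.826% called lower and 0.541% higher. No marker on these lists was listed at 0 in all libraries. The part of these markers in the lower Pcdha4, alpha, Abi2 and Rell2 levels was not tested, and in bulk RNA fewer cells of a type and less RNA per cell cannot be told apart.

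The targeted genes did not pass the threshold in these libraries. Zfp57 had 14.6 and 11.8 CPM in the controls and 10.7 and 9.32 CPM in the knockdown (log2 fold change -0.40, edgeR adjusted p = 0.341). Phf21b had 7.25 and 7.36 CPM against 5.49 and 6.45 CPM (-0.29, edgeR adjusted p = 0.644). Zfp7 had 1.68 and 2.27 CPM against 1.96 and 0.977 CPM, and overlapped (-0.37, edgeR adjusted p = 0.80).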

How the data were processed

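RNA was measured in 4 libraries, 2 per group, built from total RNA (NEBNext Ultra II kit, per the labels' protocols). The deposited table holds estimated counts for each gene, without normalization, and each of its 4 columns belongs to a sample. Per the submitters' processing notes, Salmon and the builds GRCm38 and mm10 were used; annotation, gene summing and strand use were not given in the sources used here. Identifiers were matched without version to GENCODE M21, which named 34582 of 34866. Nothing in the labels says that replicates came from separate cultures or litters, so p-values cover only the spread among the 4 libraries, possibly technical.

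Estimated counts were rounded, and edgeR 4.0.16 (R 4.3.3) tested them (TMM, filterByExpr with minimum count 10, robust quasi-likelihood fit, two-sided, Benjamini-Hochberg adjustment over all genes tested, threshold 0.05). For sums, members' rows were replaced by their summed counts. The SE is the size of the log2 fold change over the square root of F. Intervals are 95% and use the SE. No exact permutation test was used, since with 2 libraries a group its smallest p is 0.33. Alternatives were DESeq2 1.42.0, limma 3.58.1 (voom), other scalings and filters, a replicate block, and each library left out. The code was tested on simulated data.

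Sequence sharing was computed from 31-base words of the M21 transcripts on both strands. CPM per kb uses the mean transcript length.

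Named members were those past the threshold, the 5 tested with the highest mean CPM in each cluster, the C-type isoforms, and the extremes of each cluster. From other lists, genes past the threshold were named, or else the 2 highest, and these only for the lists tied to the clusters. The members and lists were chosen with earlier results of these data known.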

Additional observations from a re-analysis of the deposited data

Results flagged for a closer look

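Pcdhgb8 lies in the gamma cluster and shares its constant exons, but M21 lists it as a polymorphic pseudogene, which left it outside the 57 members. It was listed at 0 in both shControl libraries and had estimated counts of 12.6 and 3.71 in triple knockdown replicates 1 and 2. The values drew attention because they appear in a row outside the members and are above the controls. The row entered only an alternative of the cluster sums, in which the gamma sum was -0.23 instead of -0.26 on the log2 scale. Its reads in the constant exons cannot be told apart from those of the gamma members, and the difference was not tested.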

How the results depend on the processing

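The alpha, beta and gamma sums, and the C-type and alternate sums, stayed below 0 and short of the threshold in every alternative run. Pcdha4 passed in 10 of 13 alternatives, and the other members named by rule and the sums in 0 of 287 fits. Pcdha2 and Pcdhga4, named after their values were seen, are not in that count and passed in some alternatives.

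The number of members called lower was 1. It was 0 with DESeq2, 2 without the filter on low counts, 0 with counts scaled by 31-base words not shared in the cluster, and 0 to 2 when each library was left out. With a library left out, 1 group is a single library, assumed to vary like the remaining pair, so calls kept or lost in these fits rest on the spread of 1 group. The second call was Pcdha2 without shControl replicate 1, and Pcdhga4 without shControl replicate 2 (edgeR adjusted p = 0.041). The number called higher stayed at 0. Medians with at least 1 CPM required in 2 libraries were -0.52 (4 alpha members in place of 6) and -0.34 (5 gamma members in place of 10). With the scaled counts they were -0.73 (2 alpha members) and -0.35 (5 gamma members), so other members entered. Leaving out each library gave -0.77 to 0.75 for alpha, -0.38 to 0.023 for beta and -0.31 to -0.20 for gamma. The scaling multiplies a member by the same share in all 4 libraries, so it lowers counts and leaves folds nearly as they were: Pcdha4 was -1.48 (edgeR adjusted p = 0.0940), which says nothing of how shared reads were divided. The scaled counts and the alpha sum without Pcdha4 were chosen after seeing the data.

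Signs turned only in results short of the threshold. Pcdha7 was -0.026 with DESeq2 and -0.068 with the replicate block, and Pcdhb7 was 0.0045 with library totals alone. Ranges over left-out libraries were -1.69 to 1.58 for Pcdha7, -0.77 to 2.37 for Pcdha11 (ENSMUSG00000102206), -0.15 to 6.498 for Pcdhac1, -0.80 to 1.48 for Pcdhb6, -0.28 to 0.099 for Pcdhb7, -0.85 to 0.59 for Pcdhb17, -0.60 to 0.10 for Pcdhb22, -0.48 to 1.30 for Pcdhgb5, -0.31 to 0.042 for Pcdhgc4, and -0.21 to 0.10 for alpha without Pcdha4. Without turning sign, Pcdha9 went from 0.25 to 6.98, Pcdhac2 from -2.96 to -0.22, Pcdhb14 from 0.0026 to 0.41, Pcdhb20 from -1.13 to -0.31, Pcdhga11 from -2.29 to -0.41, Pcdhgc3 from -0.72 to -0.18 and the beta sum from -0.22 to -0.022. The highest values of Pcdha9 and Pcdhac1 have the remaining control at 0 and depend on the prior count. The cause was not tested.

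The replicate block gave -1.51 for Pcdha4 (edgeR adjusted p = 0.0015) and changed no call of a member. The deviations of same-numbered libraries had a correlation of -0.032 across genes. A single value over all genes cannot show whether some genes shared a deviation. The numbers were not taken as pairs in the main fit.

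Over all genes, 116 lower and 76 higher calls became 28 and 77 with library totals alone and 32 and 23 with DESeq2. Without shControl replicates 1 and 2 they were 184 and 112, and 334 and 280. Without triple knockdown replicates 1 and 2 they were 17 and 27, and 27 and 36. Depth limits the members, of which 28 of 57 fell below the filter.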
